A study of Homo sapiens with 10 samples.

Results

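The genes described here are those for the proteins of the mitochondrial ribosome, taken as the protein-coding genes whose symbol begins with MRPL or MRPS and a digit. There were 78 of them among 60623 counted gene IDs, 49 with an MRPL and 29 with an MRPS symbol. The pattern matched 164 symbols in all, and 86 were left out, 79 as pseudogenes and 7 as antisense or other non-coding genes. By the place of the protein in the ribosome, 51 members belong to the large subunit and 26 to the small subunit. MRPS18A and MRPS30 are counted with the large subunit despite their symbols, and MRPS36, now known as a component of the 2-oxoglutarate dehydrogenase complex, belongs to neither.

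Mitochondrial ribosomes translate the few mRNAs encoded in mitochondrial DNA, all of which specify subunits of the respiratory chain and of ATP synthase. Their RNA comes from mitochondrial DNA, while every ribosomal protein is made from a nuclear gene in the cytosol and imported. Some of these proteins have homologs in bacterial ribosomes, and the others occur in mitochondria alone. Nuclear respiratory factor NRF1, ETS family factors such as GABPA, and YY1 are textbook regulators of nuclear genes for mitochondrial proteins, and MYC is known as an activator of mitochondrial biogenesis.

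Messenger RNA was sequenced in A375, a human melanoma line with an activating BRAF mutation, harvested 72 h after transfection. Experiment 1 comprised 4 libraries with small interfering RNA (siRNA) against PHF10, a subunit of the PBAF chromatin remodelling complex, and 2 controls. Experiment 2 comprised 2 libraries labelled MYC knockdown and 2 controls of its own, and the question behind both was how PHF10 bears on genes that MYC controls. The labels disagree on the controls, which received control siRNA by the protocol but carry the entry "no treatment" in the siRNA field. Nothing states that replicates were separate cultures, and the p-values therefore reflect nothing beyond the variation among these libraries, possibly technical. In such bulk RNA, fewer cells of a kind and less RNA per cell cannot be told apart.

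Gene reads numbered 20.5 to 38.4 M per library. Levels are given in CPM, counts per M of gene reads after scaling of library sizes by trimmed means (TMM). PHF10 measured 16.1, 17.96, 15.0 and 15.7 CPM in the PHF10 knockdown libraries against 40.1 and 36.6 CPM in their controls. It fell by 1.24 on the log2 scale (SE 0.10, edgeR adjusted p = 0.00105). In experiment 2 PHF10 measured 124 and 119 CPM in the labelled pair and 124 and 125 CPM in the controls. The controls of experiment 2 thus lay above those of experiment 1, by 1.70 on the log2 scale (SE 0.12, edgeR adjusted p = 0.000122). MYC measured 16.7 and 13.3 CPM in the pair labelled MYC knockdown against 15.0 and 26.5 CPM in their controls, with a log2 fold change of −0.46 (SE 0.39, edgeR adjusted p = 0.688). The groups overlapped, so the MYC mRNA did not bear out the label, and directions in experiment 2 rest on the labels. Of the melanocyte lineage markers, SOX10 stood at 528 to 948 CPM and PAX3 at 18.1 to 27.4 CPM, while the pigment genes MLANA and TYR were at or near 0. The immune markers PTPRC and CD3E did not exceed 0.13 CPM.

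The 78 members together took 0.355%, 0.369%, 0.422% and 0.406% of gene reads in replicates 1 to 4 of PHF10 knockdown, and 0.362% and 0.418% in the controls of experiment 1. The share was 0.342% and 0.332% in the pair labelled MYC knockdown and 0.367% in both of their controls. Experiment 1 thus held libraries with few and with many such reads in either group, whereas in experiment 2 both labelled libraries lay below both controls. Pseudogenes of the family took few reads, at 0.0641% to 0.153% of those of the members.

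Relative levels within the family were read per kilobase of exon, since CPM grows with transcript length. The median over the 77 members that passed the filter on low counts was 15.6 CPM per kb, with quartiles of 10.8 and 27.6. The highest mean levels over the 10 libraries belonged to MRPS34, which stabilises the small subunit, at 78.9 CPM per kb and to MRPL51 of the large subunit at 75.9 CPM per kb. MRPS26, MRPS21 and MRPL41 followed at 59.3, 50.7 and 48.2 CPM per kb. The order of the first 2 depended on the group. MRPS34 averaged 73.0 CPM per kb in the PHF10 knockdown libraries, 72.9 in the controls of experiment 1, 84.5 in the pair labelled MYC knockdown and 91.0 in the controls of experiment 2. MRPL51 averaged 74.98 CPM per kb in the PHF10 knockdown libraries, 79.3 in their controls, 69.8 in the pair labelled MYC knockdown and 80.3 in their controls. Single libraries of MRPS34 covered 51.5 to 108 CPM before division by length, and those of MRPL51 85.2 to 150 CPM, so the gap between the 2 was small beside their spread.

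At the lower end, MRPL53 reached at most 0.134 CPM and was the only member not tested. It had 0 reads in 4 libraries, which allows 0.0782 to 0.127 reads per M of gene reads at a limit of 3 reads, for counting error only. MRPS24, the homolog of a bacterial protein at the mRNA entry, had a mean of 0.304 CPM per kb, MRPL46 had 0.439, MRPL38 had 0.692 and MRPL23, which lies at the peptide exit in bacteria, had 1.77. Some members share exon sequence with other genes, and the files list reads that fit more than 1 gene apart from the gene counts. Of the exon length of MRPL53, 45.2% is shared with a gene on the same strand (CCDC142). For MRPL38, MRPS24 and MRPL46 it is 37.5%, 23.2% and 11.3%. In all, 16 members share exon sequence on their strand with another gene and 7 share over 20%. Of the 78 members, 71 averaged at least 10 CPM.

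**Figure D1:**
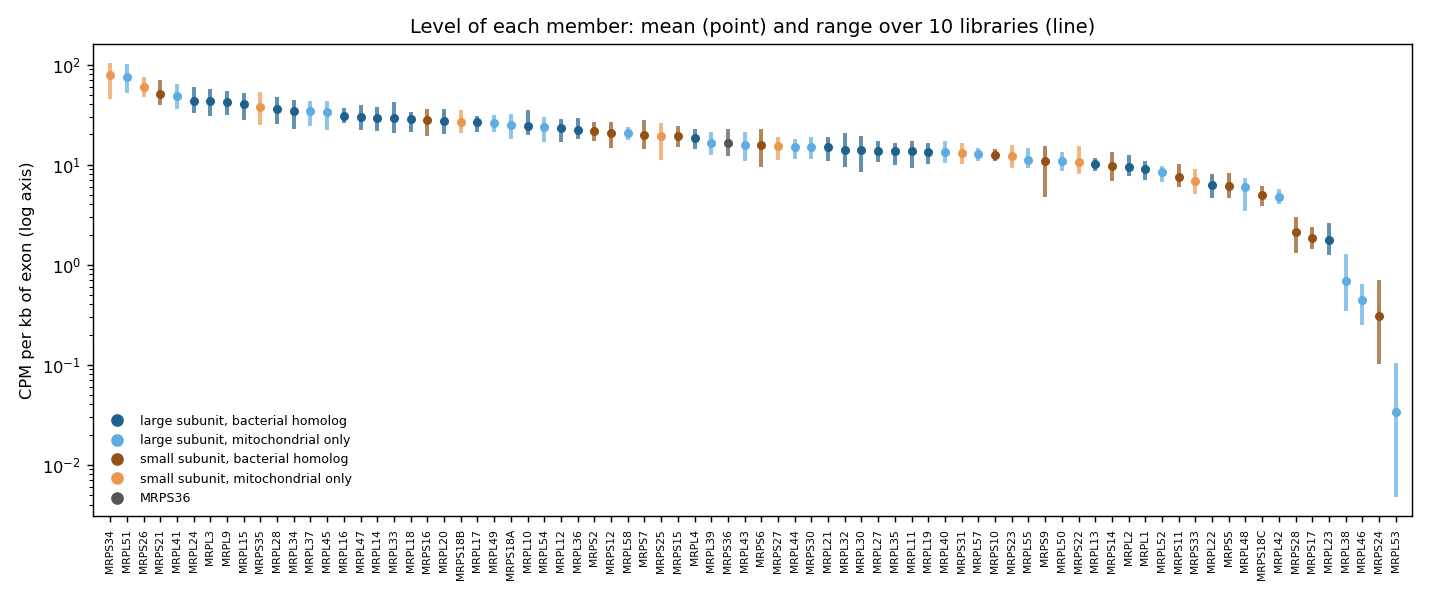
Mean level of each of the 78 members in CPM per kb of exon on a log axis, with the line spanning the lowest to the highest of the 10 libraries and libraries at 0 drawn at 0.005. Members between the quartiles lay at 10.8 to 27.6 CPM per kb, and MRPL38, MRPL46, MRPS24 and MRPL53 formed a low tail.

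The promoters of 4 members are shown because these genes had the most negative and the most positive fold changes of the 2 knockdowns. MRPL36 and MRPL43 are the ends for PHF10 knockdown, and MRPS9 and MRPS6 those for the libraries labelled MYC knockdown. Each sequence is the strand of the gene, 5′ to 3′, from 250 bases before to 50 bases after the first listed start, from RefSeq (GRCh38.p14). Capitals mark matches on either strand to 4 motifs, the E-box CACGTG bound by MYC with MAX, the NRF1 motif GCGCN followed by TGCGC, the ETS motif CCGGAAG and the YY1 motif AANATGG followed by CGGC. The regions are chr5:1799788-1800087 (minus strand), chr10:100987448-100987747 (minus strand), chr2:105037819-105038118 (plus strand) and chr21:34073328-34073627 (plus strand).
MRPL36: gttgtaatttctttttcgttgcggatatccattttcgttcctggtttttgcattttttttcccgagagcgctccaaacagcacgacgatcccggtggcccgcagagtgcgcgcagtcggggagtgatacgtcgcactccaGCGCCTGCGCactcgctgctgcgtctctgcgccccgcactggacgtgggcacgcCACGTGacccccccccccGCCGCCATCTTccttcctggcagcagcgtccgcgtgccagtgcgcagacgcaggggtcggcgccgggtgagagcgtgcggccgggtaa
MRPL43: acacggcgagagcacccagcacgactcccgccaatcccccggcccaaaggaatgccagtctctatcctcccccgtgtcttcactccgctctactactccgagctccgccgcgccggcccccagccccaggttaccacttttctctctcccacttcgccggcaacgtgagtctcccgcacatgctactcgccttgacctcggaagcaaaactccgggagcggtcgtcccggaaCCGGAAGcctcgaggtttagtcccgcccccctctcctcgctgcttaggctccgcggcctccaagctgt
MRPS9: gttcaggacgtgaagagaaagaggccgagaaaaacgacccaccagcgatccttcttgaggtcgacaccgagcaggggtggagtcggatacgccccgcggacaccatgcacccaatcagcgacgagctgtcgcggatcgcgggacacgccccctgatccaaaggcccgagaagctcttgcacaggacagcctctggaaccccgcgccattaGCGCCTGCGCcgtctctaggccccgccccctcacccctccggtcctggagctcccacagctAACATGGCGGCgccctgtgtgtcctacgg
MRPS6: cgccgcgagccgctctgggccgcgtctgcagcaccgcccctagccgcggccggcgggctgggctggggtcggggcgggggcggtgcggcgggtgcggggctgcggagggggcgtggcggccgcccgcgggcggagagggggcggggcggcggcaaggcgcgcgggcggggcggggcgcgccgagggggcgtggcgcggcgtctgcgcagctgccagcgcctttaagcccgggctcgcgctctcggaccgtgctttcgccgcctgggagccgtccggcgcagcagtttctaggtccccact

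In the MRPL36 promoter the NRF1 motif begins 110 bases, the E-box 56 bases and the YY1 motif 38 bases before the start. MRPL43 holds an ETS motif 18 bases before its start. MRPS9 holds an NRF1 motif 40 bases before and a YY1 motif 21 bases after the start, and none of the 4 motifs is in the window of MRPS6. A match describes the letters and says nothing of binding.

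Promoters were listed for 69 of the 78 members. The ETS motif was in 29 of them (42.0%), against 17.8% of 12415 tested genes with a listed promoter, and the YY1 motif in 14 (20.3%) against 2.96%. The NRF1 motif was in 8 (11.6%) against 10.9%, and the E-box in 6 (8.70%) against 9.82%. Matches of different motifs did not overlap in any member promoter, and 23 promoters held none. The 6 members with an E-box were MRPL22, MRPL36, MRPL37, MRPL45, MRPL49 and MRPS18C. Their median log2 fold change in the pair labelled MYC knockdown was −0.12, against −0.18 for the 62 tested members with a listed promoter and no E-box. With the YY1 motif the median was −0.16 over 14 members and without it −0.19 over 54. For the other 2 motifs the members with a match had the lower median, at −0.26 over 8 members with and −0.17 over 60 without the NRF1 motif, and at −0.21 over 28 with and −0.17 over 40 without the ETS motif.

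Across libraries, many members moved together within experiment 1 without following the groups. The median over members was 5.29, 5.44, 5.71 and 5.57 log2 CPM (prior count 2) in replicates 1 to 4 of PHF10 knockdown, and 5.39 and 5.68 log2 CPM in the controls of experiment 1. Both groups therefore held lower and higher libraries. The median was 5.26 and 5.22 log2 CPM in the pair labelled MYC knockdown and 5.43 and 5.48 log2 CPM in the controls of experiment 2, with no overlap.

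The libraries of experiment 1 with low values were those with high type I interferon genes. The mean over 26 interferon genes was 7.73, 7.43, 2.95 and 4.54 log2 CPM in replicates 1 to 4 of PHF10 knockdown, and 8.20 and 4.45 log2 CPM in the controls. Reads outside annotated genes were 12.1% to 13.8% in the 3 libraries with the highest interferon means, beside 9.93% to 10.6% in the rest of that experiment. In 36 of the 77 members all 3 libraries with high interferon genes lay below the other 3, which held for 9.13% of all tested genes, and in 0 members they all lay above (9.43% of all genes). The 36 comprised 24 of 50 large subunit and 12 of 26 small subunit members. This division, called the interferon split, was made on the libraries' own values, so this is a description with no test, and the part of the interferon genes in it was not tested.

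MRPL51 is an example with a wide gap, 0.48 on the log2 scale between the 3 libraries and the other 3. Other members, such as MRPS14, MRPL28 and MRPL43, overlapped between the 2 sides of the split. It measured 85.2, 96.0, 149.3 and 134.6 CPM in replicates 1 to 4 of PHF10 knockdown, against 96.2 and 149.9 CPM in the controls. The low and the high value occurred in both groups, and the groups overlapped throughout. Between the 2 controls of experiment 1 alone, 74 of 77 members were lower in replicate 1, by a median of −0.28 on the log2 scale, while the median over all genes was 0.00178. Other gene sets divided in the same way to differing extents. The 3 libraries lay below the other 3 in 75 of 79 cytosolic ribosomal protein genes, 38 of 74 nuclear genes of the respiratory chain and 10 of 13 mitochondrially encoded mRNAs.

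**Figure D2:**
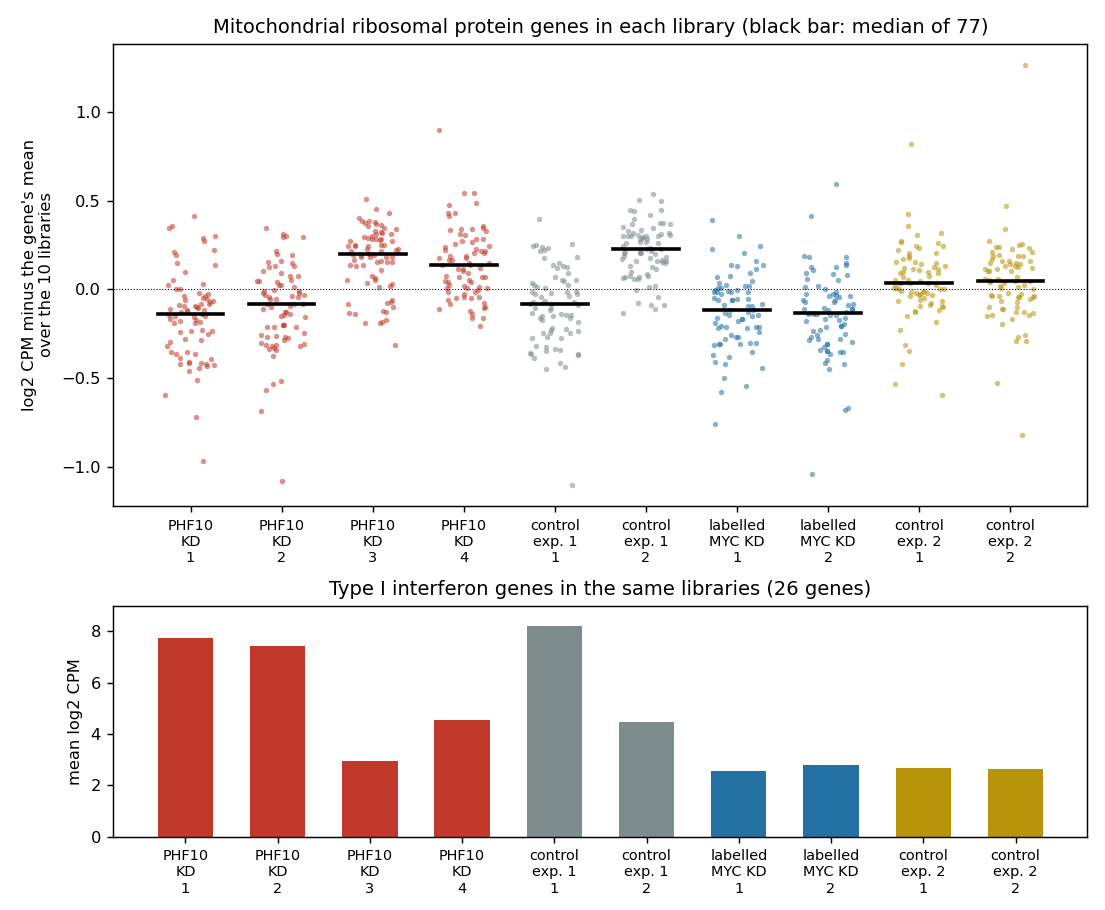
Upper panel, log2 CPM of the 77 tested members in each library minus each gene's mean over the 10 libraries, with the median as a black bar. Lower panel, mean log2 CPM of 26 type I interferon genes in the same libraries. In experiment 1 the libraries with interferon means of 7.43 to 8.20 had the lower medians of members, in both groups, and in experiment 2 both libraries labelled MYC knockdown (KD) had medians below both controls.

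The spread among replicates followed the same pattern. The median coefficient of variation over members was 16.0% in the PHF10 knockdown libraries and 14.2% in the controls of experiment 1. It was 2.42% in the pair labelled MYC knockdown and 1.87% in the controls of experiment 2. The ratio of summed CPM of large to small subunit members was 1.72, 1.86, 1.80 and 1.72 in replicates 1 to 4 of PHF10 knockdown, against 1.75 and 1.77 in their controls. It was 1.89 and 1.93 in the pair labelled MYC knockdown, against 1.93 and 1.92 in the controls of experiment 2. The ratios of knockdown and control libraries overlapped within each experiment, and all 4 libraries of experiment 2 lay above all 6 of experiment 1.

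After PHF10 knockdown the family as a whole stayed close to its controls. The median log2 fold change over the 77 tested members was −0.06, beside 0.02 over all 18450 genes tested, with a range of −0.39 to 0.46, 26 values above 0 and 51 below. By edgeR's quasi-likelihood test with Benjamini-Hochberg adjustment over all genes, 0 members rose and 0 fell at an adjusted p under 0.05, where 6.34% of all genes passed in either direction (2.75% higher and 3.58% lower). At an unadjusted p under 0.05 there were 4 members, where 22.7% of all genes had one. DESeq2 called 1 member higher (5.64% of all genes) and 1 lower (6.18%), and both are described next. The standard errors ran over 0.09 to 0.51 with a median of 0.16, so the test could not show small shifts.

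MRPL36 is a zinc-binding protein of the large subunit with a bacterial homolog, encoded on chromosome 5 (1798386 to 1801366, minus strand, GRCh38). It measured 26.7, 26.3, 28.9 and 29.2 CPM in replicates 1 to 4 of PHF10 knockdown, against 33.3 and 39.2 CPM in the controls. Every PHF10 knockdown library lay below both controls. The mean was 27.8 ± 1.5 CPM after PHF10 knockdown (SD, n = 4) and 36.3 ± 4.2 CPM in the controls (SD, n = 2), which is a log2 fold change of −0.39 (SE 0.11, edgeR adjusted p = 0.0677). DESeq2 gave an adjusted p of 0.0168, and edgeR with the interferon split as a term, which called this 1 member lower (7.56% of all genes) and 1 higher (5.82%), also gave 0.0168.

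MRPL43, a large subunit protein found in mitochondria alone, is encoded on chromosome 10 (100969458 to 100987515, minus strand). It measured 52.7, 67.6, 71.5 and 61.0 CPM in replicates 1 to 4 of PHF10 knockdown, against 40.7 and 51.1 CPM in the controls. The groups did not overlap, although replicate 1 lay only just above the higher control. The log2 fold change was 0.46 (SE 0.15, edgeR adjusted p = 0.0956), with an adjusted p of 0.0380 by DESeq2 and of 0.0426 with the interferon split as a term. With single libraries left out it ran over 0.30 without control replicate 1 (edgeR adjusted p = 0.421) to 0.63 without control replicate 2 (0.159), and without PHF10 knockdown replicate 1 it was 0.54 (0.0377).

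Libraries of the groups did not overlap in 2 members with higher values after PHF10 knockdown, MRPL43 and MRPS31, where 13.4% of all genes did so. They did not overlap in 4 members with lower values, MRPL14, MRPL36, MRPL50 and MRPS18C, beside 13.7% of all genes. MRPL14 lies at the face between the subunits and measured 25.8, 31.4, 28.6 and 26.6 CPM in PHF10 knockdown libraries, against 31.8 and 34.2 CPM in their controls. MRPL50 measured 34.5, 33.9, 37.4 and 36.2 CPM against 41.8 and 43.0 CPM. Its log2 fold change of −0.26 (SE 0.09) had an edgeR adjusted p of 0.136.

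Further from 0 but overlapping were MRPL23, MRPS36 and MRPL41. MRPL23 had 3.85, 4.74, 5.26 and 5.34 CPM after PHF10 knockdown and 4.27 and 7.39 CPM in the controls, with a log2 fold change of −0.28 (SE 0.24) that was 0.16 without control replicate 2. MRPS36 had 24.1, 27.6, 33.4 and 27.5 CPM against 19.3 and 24.7 CPM (0.36, SE 0.15, edgeR adjusted p = 0.200). MRPL41, which also binds the apoptosis regulator BCL2, had 49.0, 69.9, 76.4 and 67.4 CPM against 47.6 and 57.2 CPM (0.33, SE 0.17). Without control replicate 1, the MRPL41 value was 0.19 (edgeR adjusted p = 0.676) and that of MRPS36 0.18 (0.635). Without control replicate 2 the value was 0.46 (0.386) for MRPL41 and 0.54 (0.239) for MRPS36, and without PHF10 knockdown replicate 1 it was 0.44 (0.0495) for MRPL41 and 0.42 (0.109) for MRPS36. In these 3 members the PHF10 knockdown libraries spanned the level of at least 1 control.

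The median of the family depended on which control was kept. It was −0.23 without control replicate 1 and 0.13 without control replicate 2, and within the libraries of high and of low interferon genes, taken apart, it was −0.07 in both.

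In experiment 2 most members lay lower in the pair labelled MYC knockdown, by small amounts. The median log2 fold change was −0.18, beside −0.01 over all genes tested, with 69 of 77 values below 0. In 60 members both labelled libraries lay below both controls, where 36% of all genes did so, and in 6 members both lay above (33.6% of all genes). By edgeR with all 10 libraries, 0 members rose and 0 fell, where 0.493% of all genes passed (0.282% higher and 0.211% lower), and 4 had an unadjusted p under 0.05 (13.2% of all genes). DESeq2 called 1 member higher (1.94% of all genes) and 2 lower (1.97%). With the interferon split of experiment 1 as a term, edgeR called 1 higher (1.44%) and 1 lower (1.59%).

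That fit takes its spread from both experiments. The common coefficient of variation was 21.4% over all libraries, 26.7% in experiment 1 alone and 3.39% in experiment 2 alone. With experiment 2 fitted alone, 44 of 77 members (57.1%) fell by edgeR, beside 22.6% of all genes, and 4 rose, beside 21.9%. The falls in that fit ran over −0.85 to −0.15. They took in 15 of 29 large subunit proteins with a bacterial homolog, 12 of 21 tested large subunit proteins of mitochondria alone, 10 of 16 small subunit proteins with a bacterial homolog and 7 of 10 small subunit proteins of mitochondria alone. No group of proteins by place or origin was free of falls. Adjusted p-values of that fit rest on how closely the libraries of experiment 2 repeated each other, which may be technical.

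**Figure D3:**
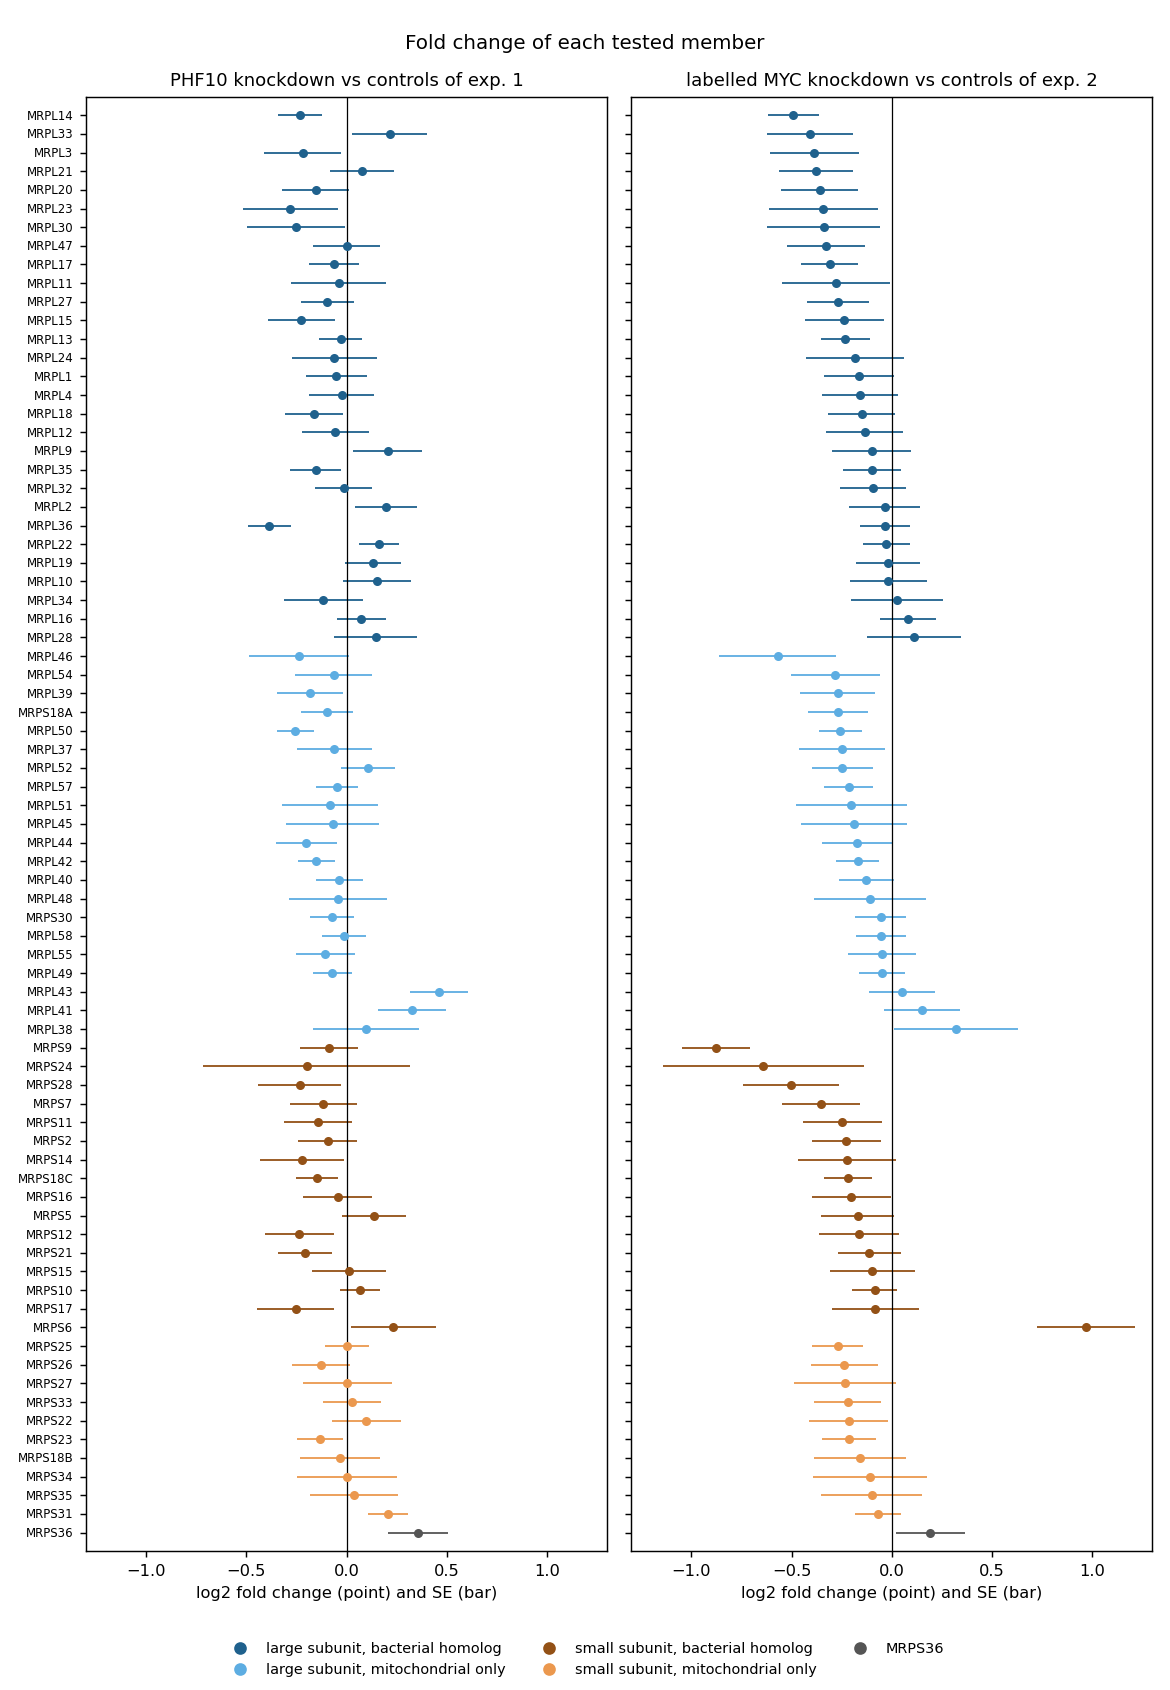
Log2 fold change (point) and SE (bar) of each of the 77 tested members in the fit of all 10 libraries, after PHF10 knockdown (left) and in the pair labelled MYC knockdown (right), grouped by subunit and by bacterial or mitochondrial origin. The left panel scatters about a median of −0.06. In the right panel 69 of 77 points lie below 0, with MRPS9 lowest at −0.87 and MRPS6 highest at 0.97.

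MRPS9 had the most negative value. It is a small subunit protein whose bacterial homolog reaches the tRNA in the peptidyl site, encoded on chromosome 2 (105037983 to 105099960, plus strand). It measured 11.6 and 9.58 CPM in the pair labelled MYC knockdown against 18.4 and 20.5 CPM in their controls. The groups were well apart, and the PHF10 knockdown libraries (25.1, 20.3, 25.8 and 24.9 CPM) overlapped their controls (23.2 and 27.9 CPM). In experiment 2 the log2 fold change was −0.87 (SE 0.17, edgeR adjusted p = 0.0610), with an adjusted p of 0.000558 by DESeq2. In edgeR the adjusted p was 0.0374 on unstranded counts, 0.0237 with the interferon split as a term and 1.23e-10 with experiment 2 alone.

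MRPS6 went the other way. This small subunit protein with a bacterial homolog is encoded on chromosome 21 (34073224 to 34143034, plus strand) and shares 9.61% of its exon length with genes on its strand. It measured 84.5 and 85.9 CPM in the pair labelled MYC knockdown against 42.6 and 44.6 CPM in their controls. Both labelled libraries were far above both controls. The log2 fold change was 0.97 (SE 0.24, edgeR adjusted p = 0.122), with an adjusted p of 0.0123 by DESeq2, 0.0152 in edgeR with the interferon split as a term and 4.8e-22 with experiment 2 alone. After PHF10 knockdown it had 65.6, 54.2, 74.1 and 93.8 CPM, against 49.8 and 72.6 CPM in the controls, with overlap.

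The third member called by DESeq2 was MRPL14, with 21.6 and 21.9 CPM in the labelled libraries against 30.3 and 31.0 CPM in their controls. Its log2 fold change was −0.49 (SE 0.13, edgeR adjusted p = 0.133), with an adjusted p of 0.0170 by DESeq2. MRPS24 and MRPL46 also had low values, but at low levels. MRPS24 had 0.855 and 1.06 CPM against 1.26 and 1.74 CPM (−0.64, SE 0.50), and MRPL46 had 1.84 and 1.68 CPM against 2.65 and 2.59 CPM (−0.57, SE 0.29). Both labelled libraries were below both controls in each of these 3 members.

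The 4 members that rose with experiment 2 alone were MRPS6, MRPS36, MRPL41 and MRPL28. MRPS36 had 24.9 and 25.03 CPM in the labelled libraries against 21.1 and 22.6 CPM in their controls, a log2 fold change of 0.19 (SE 0.17) in the fit of all libraries. MRPL41 had 63.3 and 63.6 CPM against 59.2 and 55.1 CPM. MRPL28 had 109 and 118 CPM against 106 and 104 CPM. MRPL38, at 1.74 and 1.96 CPM against 1.63 and 1.33 CPM, had a log2 fold change of 0.32 (SE 0.31) and did not pass in that fit. Apart from MRPS6, these members lay only slightly above their controls.

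The 2 knockdown effects were also set against each other, each with controls of its own. The median of PHF10 effect minus MYC effect over the members was 0.13 on the log2 scale, beside 0.01 over all genes. By edgeR 0 members differed in either direction, where 0.385% of all genes did (0.26% higher and 0.125% lower), and 2 had an unadjusted p under 0.05 (11.7% of all genes). DESeq2 called 1 higher (1.97% of all genes) and 0 lower (1.46%), the 1 being MRPS9 with a difference of 0.79 (adjusted p = 0.0496). In edgeR this difference had an SE of 0.22 and an adjusted p of 0.177. MRPS6 stood at the other end with −0.73 (SE 0.32, edgeR adjusted p = 0.411), and ran over −0.98 without control replicate 1 of experiment 1 to −0.44 without its replicate 2.

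Between these ends, MRPL33 had a difference of 0.62 (SE 0.28), MRPL21 one of 0.45 (SE 0.24), MRPL36 one of −0.35 (SE 0.17) and MRPL38 one of −0.22 (SE 0.41). MRPL33 and MRPL21 lay below their controls in the pair labelled MYC knockdown, at 35.7 and 33.0 CPM against 43.0 and 48.2 CPM for MRPL33 and at 33.5 and 32.4 CPM against 41.98 and 43.8 CPM for MRPL21. MRPL36 had 30.1 and 30.5 CPM in those libraries against 32.4 and 29.7 CPM, with overlap. By sign alone, 50 members were negative in both comparisons, 19 were negative in experiment 2 and positive after PHF10 knockdown, 7 were positive in both and 1 was negative after PHF10 knockdown and positive in experiment 2. The differences of MRPL33 and MRPL21 depended on the same libraries, at 0.44 for MRPL33 and 0.21 for MRPL21 without control replicate 1 of experiment 1, and at 0.83 for MRPL33 and 0.74 for MRPL21 without its replicate 2. Without control replicate 2 of experiment 1 the median difference was 0.29, and without control replicate 1 it was −0.02.

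**Figure D4:**
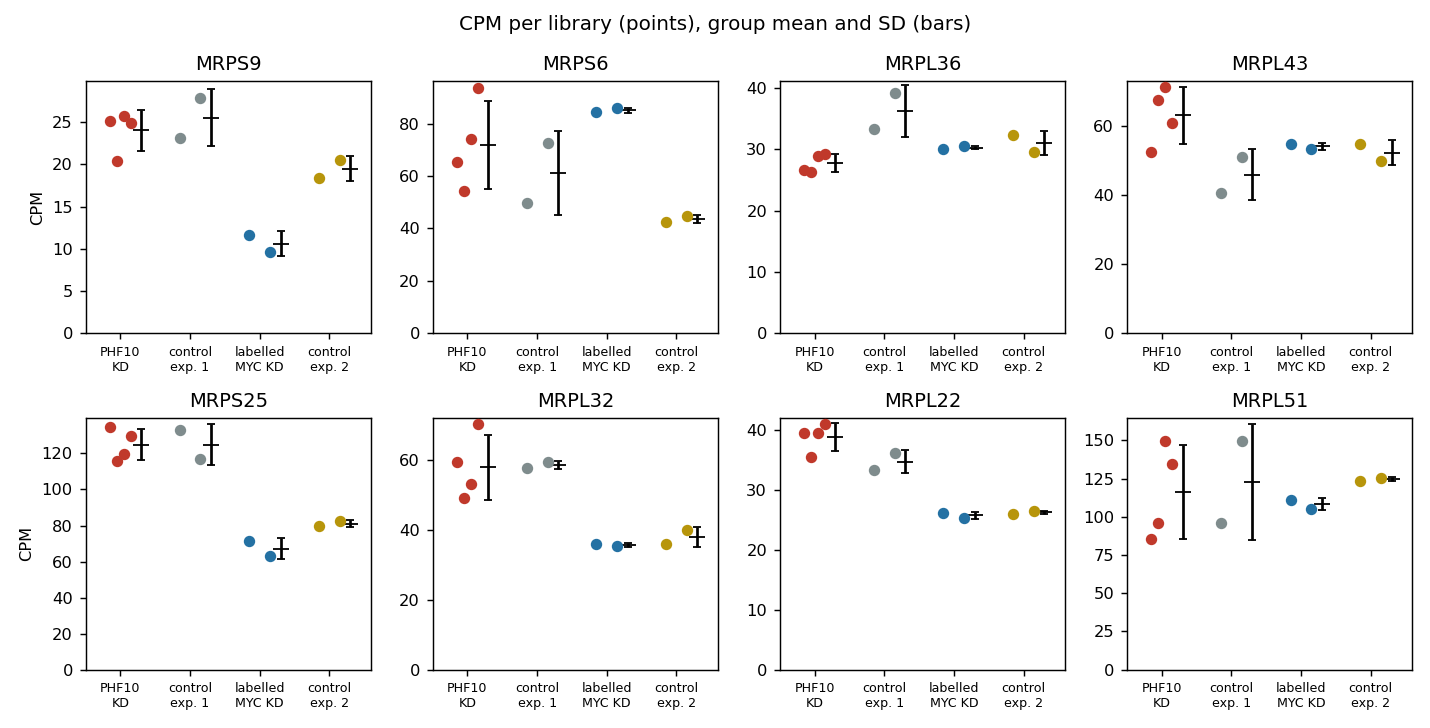
CPM of 8 members in each library (points), with group mean and SD (bars, n = 4 for PHF10 knockdown and 2 for the other groups; KD, knockdown). MRPS9 was lowest and MRPS6 high in the pair labelled MYC knockdown, MRPL36 and MRPL43 did not overlap between PHF10 knockdown and its controls, and MRPS25, MRPL32 and MRPL22 were lower in experiment 2 than in experiment 1.

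The controls of experiment 2 were set against those of experiment 1 to describe the levels of the members across all 4 groups. By edgeR 3 members were lower, beside 6.6% of all genes, and 0 higher, beside 8.05%, and 10 had an unadjusted p under 0.05 (30.2% of all genes). DESeq2 called 4 lower (9.11% of all genes) and 1 higher (11.2%), and edgeR with the interferon split as a term 6 lower (11% of all genes) and 6 higher (13.6%). The median log2 fold change was −0.01, beside −0.02 over all genes. What differs between the experiments and between their controls cannot be told apart here.

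MRPS25, a small subunit protein of mitochondria alone, had 79.5 and 82.5 CPM in the controls of experiment 2 against 132.7 and 116.7 CPM in those of experiment 1, with no overlap (log2 fold change −0.62, SE 0.13, edgeR adjusted p = 0.0127). MRPL32, a large subunit protein matured by a mitochondrial protease, had 36.1 and 40.2 CPM against 57.8 and 59.5 CPM (−0.62, SE 0.16, edgeR adjusted p = 0.0337). MRPL22, whose bacterial homolog lines the exit tunnel, had 26.1 and 26.5 CPM against 33.4 and 36.2 CPM (−0.40, SE 0.12, edgeR adjusted p = 0.0460). MRPS25 had 135, 116, 120 and 130 CPM after PHF10 knockdown, around its controls. It had 71.4 and 63.0 CPM in the pair labelled MYC knockdown, below both of their controls.

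These calls depended on the libraries and settings used. With no filter the edgeR adjusted p was 0.0312 for MRPS25, 0.0354 for MRPL32 and 0.360 for MRPL22, and on unstranded counts it was 0.0127, 0.0385 and 0.0599 for these 3 members. Without control replicate 1 of experiment 1 the edgeR adjusted p was 0.0990 for MRPS25, 0.126 for MRPL32 and 0.124 for MRPL22. Without its replicate 2 it was 0.0326 for MRPS25, 0.122 for MRPL32 and 0.196 for MRPL22. Without replicate 1 or 2 of the controls of experiment 2 it was 0.126 and 0.104 for MRPS25, 0.228 and 0.145 for MRPL32, and 0.254 and 0.243 for MRPL22.

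The largest differences between the controls were in thinly read members. MRPL38 had 1.63 and 1.33 CPM in the controls of experiment 2 against 2.83 and 3.11 CPM in those of experiment 1 (−1.01, SE 0.31, edgeR adjusted p = 0.0582). MRPS24 had 1.26 and 1.74 CPM against 0.279 and 0.821 CPM (1.42, SE 0.54, edgeR adjusted p = 0.110). MRPS16 had 94.7 and 96.4 CPM against 59.1 and 82.3 CPM, and MRPL30 had 52.4 and 54.1 CPM against 30.2 and 48.9 CPM. In these last 2 members control replicate 1 of experiment 1, a library with high interferon genes, was the lowest of the 4 controls. Without that library the log2 fold change was 0.22 for MRPS16 and 0.13 for MRPL30, and with it 0.43 for both. Libraries of the controls did not overlap in 15 members higher in experiment 2 (34.5% of all genes) and in 25 members lower there (33.5%).

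Genes that work with the mitochondrial ribosome were read beside the members. A list of 6 held the ribosomal proteins DAP3, PTCD3, CHCHD1, AURKAIP1 and GADD45GIP1, which have other symbols, and NDUFAB1. Its median log2 fold change was −0.12 after PHF10 knockdown and −0.25 in the pair labelled MYC knockdown. In all 6 both labelled libraries lay below both controls, where 36% of all genes did so. CHCHD1 had 12.8 and 13.6 CPM in the labelled libraries against 19.5 and 18.0 CPM in their controls (−0.51, SE 0.19, edgeR adjusted p = 0.275). NDUFAB1, the acyl carrier protein of mitochondria, had 59.7 and 55.6 CPM against 78.2 and 72.9 CPM. By edgeR 0 of the 6 passed in either comparison, and DESeq2 called 0. At an unadjusted p under 0.05 there were 0 and 1. With experiment 2 alone 5 of the 6 fell, beside the 22.6% of all genes that fell and 21.9% that rose in that fit.

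Among 30 assembly factors the medians were −0.10 after PHF10 knockdown and −0.12 in the pair labelled MYC knockdown. By edgeR 0 passed in either, with 2 at an unadjusted p under 0.05 in each. DESeq2 called 1 lower after PHF10 knockdown and 0 in experiment 2. MALSU1, which binds the large subunit at MRPL14, had 14.8, 15.0, 18.3 and 16.1 CPM after PHF10 knockdown against 19.6 and 24.0 CPM in the controls, with no overlap (−0.44, SE 0.13, edgeR adjusted p = 0.0772). TFB1M, which methylates the small ribosomal RNA, had 24.4 and 21.1 CPM in the labelled libraries against 30.2 and 33.0 CPM in their controls (−0.48, SE 0.19). With experiment 2 alone 11 of the 30 fell (22.6% of all genes) and 1 rose (21.9%).

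Among 16 translation factors the medians were 0.06 after PHF10 knockdown and −0.05 in the pair labelled MYC knockdown. By edgeR 0 passed in either, with 2 at an unadjusted p under 0.05 in each, and DESeq2 called 1 higher after PHF10 knockdown and 0 in experiment 2. The initiation factor MTIF3 had 22.4, 22.9, 23.5 and 25.3 CPM after PHF10 knockdown against 18.5 and 17.8 CPM (0.38, SE 0.11, edgeR adjusted p = 0.0717). SLIRP, which stabilises mitochondrial mRNAs, had 30.6 and 28.2 CPM in the labelled libraries against 43.3 and 46.5 CPM (−0.61, SE 0.18, edgeR adjusted p = 0.174). With experiment 2 alone 4 of the 16 fell and 1 rose, a share of falls near the 22.6% of all genes.

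Among 17 transcription and biogenesis factors the medians were −0.03 after PHF10 knockdown and −0.10 in the pair labelled MYC knockdown. By edgeR 0 passed after PHF10 knockdown and 0 in experiment 2, with 3 and 1 at an unadjusted p under 0.05, and DESeq2 called 1 lower and 0. The coactivator PPRC1 had 94.1, 70.9, 88.2 and 93.3 CPM after PHF10 knockdown against 115 and 124 CPM in the controls (−0.46, SE 0.12, edgeR adjusted p = 0.0568). SSBP1, the single-stranded DNA binding protein of mitochondria, had 81.7 and 73.0 CPM in the labelled libraries against 110 and 110 CPM (−0.51, SE 0.18). With experiment 2 alone 6 of the 17 fell (22.6% of all genes) and 3 rose (21.9%).

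Products and partners of mitochondrial translation were read last. The 13 mitochondrially encoded mRNAs had medians of 0.12 after PHF10 knockdown and 0.04 in the pair labelled MYC knockdown, and 74 nuclear genes of the respiratory chain had 0.06 and −0.07. The 79 cytosolic ribosomal protein genes had medians of 0.13 and −0.12. By edgeR and by DESeq2, 0 genes of these 3 sets passed in either comparison, and at an unadjusted p under 0.05 in edgeR there was 1 respiratory chain gene in each and 0 in the other 2 sets. With experiment 2 alone, 48 of 79 cytosolic ribosomal protein genes fell and 3 rose, 15 of 74 respiratory chain genes fell and 5 rose, and 2 of 13 mitochondrial mRNAs fell and 2 rose. Of all genes 22.6% fell and 21.9% rose in that fit, so the falls in the last 2 sets did not exceed that share. The members of the mitochondrial ribosome, at 44 of 77, thus stood beside the cytosolic ribosomal proteins in that fit. In 64 of 79 cytosolic ribosomal protein genes and 43 of 74 respiratory chain genes both labelled libraries lay below both controls. This held for 3 of 13 mitochondrial mRNAs and for 36% of all genes. Both labelled libraries lay above both controls in 5, 12 and 6 genes of these 3 sets (33.6% of all genes). Among assembly, translation and biogenesis factors, 20 of 30, 7 of 16 and 10 of 17 lay below and 3, 5 and 5 above. Differences between these sets were not tested.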

How the data were processed

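Poly(A)-selected RNA was sequenced with a directional kit as single reads, per the labels' protocols. The submitters' processing notes name cutadapt, STAR and the build GRCh38.p13 (hg38). Their versions and the annotation are not stated in the sources used here. The authors deposited raw counts of reads per gene, unstranded and for either strand, and the opposite-strand column was used. The same-strand column held 5.26% to 5.55% of stranded gene reads. Summary lines, 19.1% to 23.6% of a library, stayed out of library sizes. Members were matched by symbol, with coordinates and exon lengths from GENCODE 29.

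All 10 libraries were fitted as 4 group means with edgeR 4.0.16 (R 4.3.3): TMM, filterByExpr (minimum count 10), robust quasi-likelihood, 6 residual degrees of freedom and Benjamini-Hochberg adjustment over 18450 genes. A gene passed at an adjusted p under 0.05. The procedure was tested on simulated counts. No replicates agreed within sampling noise. Alternatives were DESeq2 1.42.0, RLE factors, no filter, unstranded counts, each experiment alone, replicate blocks, left-out libraries and the interferon split of experiment 1 as a term. That split was set at the midpoint of the interferon means of these same libraries. Adjusted p-values with it as a term are therefore conditional on a division drawn from these data. Fits within either side of that split were chosen after seeing the data.

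The members and gene lists were chosen with earlier results of these data known. Named are the 3 most negative and 3 most positive members per comparison, those past the threshold, the ends of the levels, and the genes of each list with the smallest p, some of which were left out for length. Members named by non-overlap or by an alternative fit were chosen after their values were seen.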

Additional observations from a re-analysis of the deposited data

Results flagged for a closer look

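MRPS9 stood apart in 1 library of the 4 with PHF10 knockdown. Replicate 2 had 20.3 CPM, against 25.1, 25.8 and 24.9 CPM in replicates 1, 3 and 4, and the gap to the nearest replicate was 0.844 of the whole range, above Dixon's limit for 4 values. Chance gives such a gap in about 1 of 20 groups. Replicate 2 also lay below both controls of experiment 1, at 23.2 and 27.9 CPM. The other named members were within the limit in this group.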

How the results depend on the processing

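Few reads limited MRPL53, MRPS24, MRPL46 and MRPL38, and the spread of experiment 1 limited all comparisons that use its libraries. All of these members share exon sequence on their strand with another gene, and why their reads were few was not tested. Counts past the threshold are given as higher and lower members. For no filter, unstranded counts and left-out libraries the share over all genes is not given. Those counts therefore show nothing particular to the members. After PHF10 knockdown DESeq2 gave 1 and 1, as did the interferon split as a term. In the libraries labelled MYC knockdown DESeq2 gave 1 and 2, no filter 1 and 1, the split as a term 1 and 1, unstranded counts 1 lower, and experiment 2 alone 4 and 44. For the difference of effects DESeq2 gave 1 higher. Between the controls, with 0 and 3 as reported, DESeq2 gave 1 and 4, no filter 1 and 2, unstranded counts 0 and 2, and the split as a term 6 and 6. With 1 library left out, members higher after PHF10 knockdown numbered 0 to 2, and members lower between the controls 0 to 1. The medians then ran over −0.23 to 0.13 (PHF10 knockdown), −0.20 to −0.16 (labelled MYC knockdown), −0.0156 to 0.29 (difference) and −0.17 to 0.16 (controls). MRPL23 ran over −0.63 to 0.16 after PHF10 knockdown, turning positive without control replicate 2. Causes were not tested. Where a group was left with 1 library, it was assumed to vary like the others. RLE factors left every count as reported, and within either side of the split 0 members passed after PHF10 knockdown.

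When replicate numbers entered as a block (pairing), the median after PHF10 knockdown was −0.22 and that of the difference −0.0305. PHF10 knockdown replicates 3 and 4 had no control of their number. The PHF10 effect in that fit thus rests on replicates 1 and 2 alone. In block 2 a knockdown library with high interferon genes (mean 7.43 log2 CPM) was set against a control with low ones (4.45). In block 1 both libraries were high (7.73 and 8.20). The part of the interferon split in the −0.22 was not tested. The fit left 2 residual degrees of freedom, and 0 members passed in any comparison it could fit. At an unadjusted p under 0.05 there were 17, 11 and 1 (PHF10 knockdown, labelled MYC knockdown, difference). The share of all genes in this fit is not given, so these counts show nothing particular to the members. DESeq2 was not run with a block. Deviations of same-numbered libraries from their group means correlated at 0.48 and −0.30 in experiment 1 and −0.03 in experiment 2. In a group of 2 the deviations mirror each other, so these values cannot settle whether the numbers pair the samples. The controls of the 2 experiments could not be fitted with a block. Among named members, 277 alternative values kept their direction and side of the threshold, 24 newly passed, 13 no longer passed and 1 changed sign.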
